A study of Homo sapiens with 4 samples.

Results

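The genes described here are 10 immediate early genes, chosen as a class known for unstable, AU-rich mRNAs: the AP-1 genes FOS, JUN, JUNB and JUND, the transcription factor genes EGR1, ATF3 and MYC, the early response genes IER2 and IER3, and the phosphatase gene DUSP1. They were chosen by name, and all 10 were among the 27011 genes of the count table. Not all of them fit the description: IER2 has no ATTTA pentamer in its 3' UTR, which is 41.4% A and T, and JUND has 1 in a 3' UTR of 38.4% A and T. RNA-Seq was performed on total RNA of HEK293T cells, an established human embryonic kidney line, with 2 WT libraries and 2 Helz-null libraries. Helz-null cells descend from the WT line by Cas9 editing of helz, with a small deletion that shifts the reading frame, and no other genotype or treatment was compared. Both groups were grown in 15 cm dishes for 24 h before lysis. A single edited line was compared with its parent, so that loss of HELZ and properties of that line cannot be told apart.

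Immediate early genes are transcribed within minutes when growth factors or stress activate MAP kinases, through serum response factor (SRF) with its ternary complex cofactors, CREB and pre-existing AP-1. Their mRNAs are short-lived: AU-rich elements in the 3' UTR, built of ATTTA pentamers (AUUUA in the RNA), are bound by proteins such as those of the ZFP36 family, which recruit the CCR4-NOT deadenylase. HELZ is a helicase that binds CCR4-NOT, and the comparison asked which mRNAs differ in level when HELZ is lost. RNA levels were measured at a single time in unstimulated cells, and neither half-lives nor transcription were measured.

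The 30 bases of the 3' UTR with most ATTTA pentamers are shown for the 4 members that changed and for FOS, the classical AU-rich mRNA, and IER2, which has no pentamer. They are hg19 sequence in the direction of the mRNA, from chr19:12903862-12903891 (JUNB, plus strand), chr1:212794033-212794062 (ATF3, plus strand), chr5:172195635-172195664 (DUSP1, minus strand), chr6:30711428-30711457 (IER3, minus strand), chr14:75748754-75748783 (FOS, plus strand) and chr19:13265008-13265037 (IER2, plus strand). Capitals mark the pentamers.
JUNB: atattgaatataatatatttgtgtATTTAa
ATF3: ttttctgtaagagaaaatattacttATTTA
DUSP1: ttATTTATTTAacttcacccgagttcctct
IER3: tcctaattaatATTTAtatgtATTTAtgta
FOS: gttttattgtgtttttaATTTATTTAttaa
IER2: ttttttgttttgtttgtttgtttgttttta
In FOS and DUSP1 the pentamers of this window overlap, in IER3 they stand apart, and IER2 has a T-rich run without ATTTA.

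Of the 10 members, 8 were among the 10978 genes of the authors' comparison and were tested there for an effect of genotype with edgeR (quasi-likelihood F test), and a gene was called at an adjusted p (FDR) under 0.005. JUNB, ATF3 and DUSP1 were higher in Helz-null cells, IER3 was lower, and JUN, JUND, IER2 and MYC were not called. Thus 3 of 8 were up-regulated, against 13.9% of all tested genes, and 1 of 8 was down-regulated, against 15.5%. At an unadjusted p under 0.05 the counts were 4 up and 2 down, against 2758 and 2832 of the 10978 tested genes. DESeq2 called 3 of the 8 up and 0 down, against 1102 and 1288 of all tested genes. The groups did not overlap for any of the 8, as for 70.6% of all tested genes. The median log2 fold change of Helz-null over WT (log2FC) of the 8 was 0.087, with 5 of 8 above 0, against -0.00091 and 5455 of 10978 for all tested genes. FOS and EGR1, outside that gene list, were tested among the 20904 genes with at least 1 count, where 18.2% of genes were called in either direction and neither of them was. DESeq2 did not call them either (adjusted p = 0.211 and 0.917), and only FOS had an unadjusted p under 0.05 with edgeR.

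**Figure D1:**
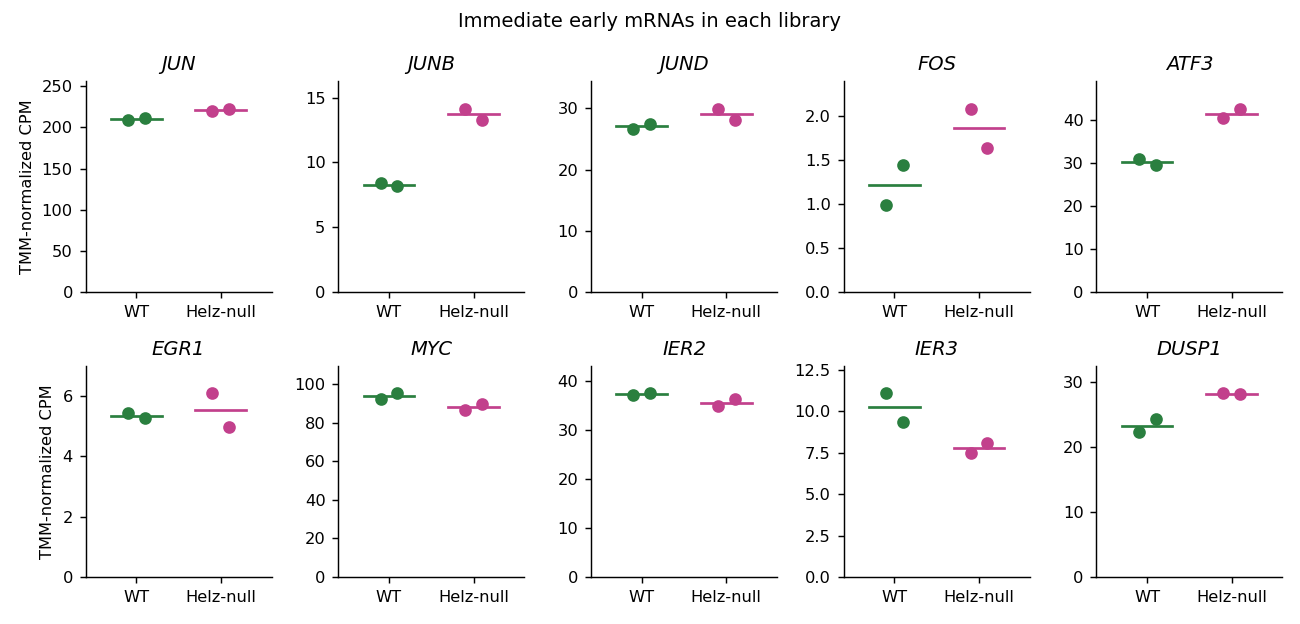
TMM-normalized CPM, that is counts scaled to a common library size (y axis from 0, own scale in each panel) of the 10 members in each library (points) of WT (green) and Helz-null (magenta) cells, with horizontal lines at group means. JUNB, ATF3 and DUSP1 sit higher in both Helz-null libraries, IER3 sits lower, and only EGR1 has overlapping groups.

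Library totals ranged from 41745401 to 70464140 counts, and the floor of 3 counts corresponded to 0.043 to 0.072 CPM. HELZ had 99.8 and 103.9 CPM in WT and 36.98 and 37.9 CPM in Helz-null cells (log2FC -1.44). Replicates were close, with a biological coefficient of variation of 2.60%. All 7 markers of HEK293 cells were detected, with summed levels of 1666 and 1668 CPM in WT and 1728 and 1746 CPM in Helz-null cells. Most of these sums came from VIM, with 1074 and 1071 CPM in WT and 979.1 and 964.3 CPM in Helz-null cells. Of the 6 tested markers, 1 was called up (NEFM, log2FC 0.89) and 3 down, of which KRT8 changed most (log2FC -0.98). These were 16.7% and 50%, against 13.9% and 15.5% of all tested genes. Markers of blood, T, liver, fibroblast, endothelial and glial cells summed to 3.17 and 4.39 CPM in WT and 3.68 and 3.11 CPM in Helz-null cells, and HBB had 0 counts in all 4 libraries. In bulk RNA fewer cells that express a gene and less RNA per cell cannot be told apart, and the part of the marker changes in the results was not tested.

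**Figure D2:**
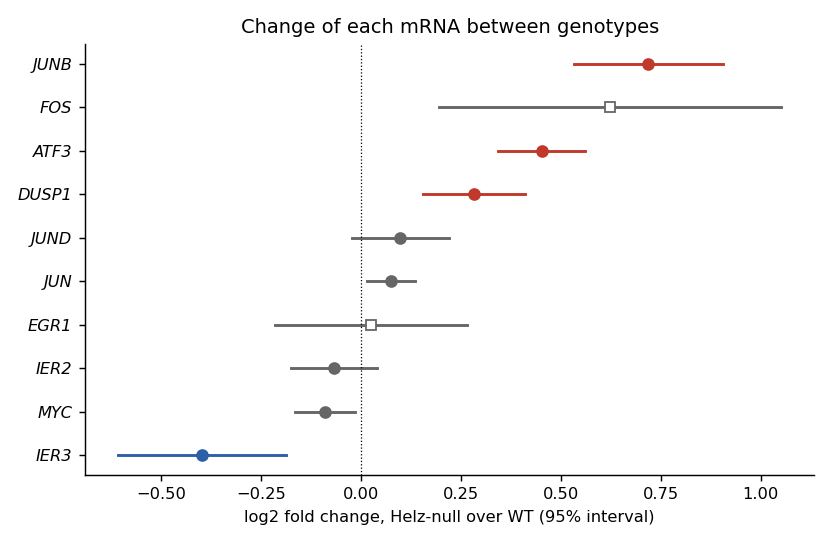
Log2 fold change of Helz-null over WT for the 10 members (x axis) with 95% intervals from edgeR (lines). Red and blue mark genes called up and down, grey marks genes that were not called, and open squares mark FOS and EGR1, tested among all genes with at least 1 count. JUNB has the highest value (0.72) and IER3 the lowest (-0.40).

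Among the JUN family, whose proteins form AP-1 as dimers with each other or with FOS proteins, JUNB was the member that changed. JUNB had 8.42 and 8.17 CPM in WT and 14.2 and 13.3 CPM in Helz-null cells, so that the lowest Helz-null library lay well above both WT libraries. Its log2FC was 0.72 (SE 0.092, 95% interval 0.53 to 0.91, adjusted p = 2.87e-08, edgeR), a 1.65-fold rise. This change was larger than that of 98.4% of tested genes. JUNB was past the threshold under all 15 other settings, with a log2FC from 0.62 to 0.77. The JUNB exon overlaps exons of HOOK2 by 259 bases on the opposite strand, and the use of strand in counting is not given. HOOK2 itself, with 13.0 and 12.9 CPM in WT and 13.8 and 11.7 CPM in Helz-null cells, was not called (log2FC -0.039, adjusted p = 0.753, edgeR).

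JUN, the most abundant AP-1 mRNA here, had 209.4 and 211.5 CPM in WT and 220.4 and 222.9 CPM in Helz-null cells. The groups lay apart by a small step, with a log2FC of 0.076 (SE 0.030, 95% interval 0.015 to 0.14, adjusted p = 0.0370, edgeR), which was not called. Only scaling by library size alone brought JUN past the threshold (log2FC 0.11, adjusted p = 0.00259, edgeR), and a correction for GC content lowered it to 0.020 (adjusted p = 0.600, edgeR). The median of all tested genes also moved in these settings, to 0.032 and -0.028. JUND had 26.6 and 27.5 CPM in WT and 29.9 and 28.1 CPM in Helz-null cells. It was not called (log2FC 0.099, SE 0.060, 95% interval -0.023 to 0.22, adjusted p = 0.185, edgeR), and its sign turned with the GC correction (-0.036). JUND has the highest GC content of the members, 69.9% of its transcript, more than 99.6% of tested genes. The 95% interval of JUNB lay above those of JUN and JUND.

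Per kilobase of gene (RPKM, CPM divided by the gene width), JUN outweighed its relatives in every library. JUN had 63.0 and 63.6 RPKM in WT and 66.3 and 67.1 RPKM in Helz-null cells, and the JUN to JUNB ratio was 13.6 and 14.1 in WT and 8.51 and 9.16 in Helz-null cells. JUNB accounted for 5.71% and 5.48% of the summed RPKM of the 3 genes in WT and for 8.72% and 8.25% in Helz-null cells. The sum itself was 81.2 and 82.1 RPKM in WT and 89.4 and 88.7 RPKM in Helz-null cells. JUNB thus remained the least abundant of the 3 mRNAs.

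FOS, the AP-1 partner that cannot dimerize with itself, had the lowest level of the members. It had 62 and 59 counts in WT and 86 and 114 counts in Helz-null cells, or 0.99 and 1.44 CPM against 2.08 and 1.64 CPM. Both Helz-null libraries were higher than both WT libraries, but WT replicates differed by 0.54 on the log2 scale, more than those of 99.8% of tested genes. The log2FC of 0.62 (SE 0.22, 95% interval 0.20 to 1.05, adjusted p = 0.0188, edgeR) was not called. This interval rests on a spread pooled across genes, so that the difference between the WT replicates of FOS hardly enters it. The log2FC was 0.34 without WT replicate 1 and 0.88 without WT replicate 2, so that single WT libraries moved it most.

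ATF3, a stress-induced member of the ATF/CREB family that dimerizes with JUN proteins, had 31.1 and 29.7 CPM in WT and 40.5 and 42.8 CPM in Helz-null cells. The gap between the groups was several times the difference between replicates. Its log2FC was 0.45 (SE 0.054, 95% interval 0.34 to 0.56, adjusted p = 5.72e-09, edgeR), a 1.37-fold rise, and ATF3 was past the threshold under all 15 other settings (0.41 to 0.49). EGR1, a zinc finger factor induced by serum, had 5.43 and 5.27 CPM in WT and 6.10 and 4.98 CPM in Helz-null cells. It was the only member whose groups overlapped (log2FC 0.027, SE 0.12, 95% interval -0.21 to 0.27, adjusted p = 0.912, edgeR). Its sign turned with GC correction (-0.030, close to the median of -0.028 of all tested genes there) and without Helz-null replicate 1 (-0.11). Helz-null replicates of EGR1 differed by 0.29 on the log2 scale, more than those of 98.4% of tested genes.

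MYC, which drives growth genes as a dimer with MAX, had 92.5 and 95.3 CPM in WT and 86.5 and 89.6 CPM in Helz-null cells. Both Helz-null libraries were slightly below both WT libraries, and MYC was not called (log2FC -0.089, SE 0.037, 95% interval -0.16 to -0.015, adjusted p = 0.0461, edgeR). MYC shares 194 exon bases with CASC11 on the opposite strand, which had at most 4 counts in a library.

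IER3, which encodes a regulator of apoptosis and ERK signalling, was the only called member that went down. It had 11.1 and 9.39 CPM in WT and 7.50 and 8.10 CPM in Helz-null cells. The difference of 0.24 on the log2 scale between WT replicates was larger than for 97.2% of tested genes. The log2FC was -0.40 (SE 0.10, 95% interval -0.61 to -0.19, adjusted p = 0.00180, edgeR), so that IER3 was 1.32-fold lower in Helz-null cells. The call was lost with DESeq2 (adjusted p = 0.0170), without WT replicate 1 (log2FC -0.26, edgeR adjusted p = 0.107) and without Helz-null replicate 1 (log2FC -0.35, edgeR adjusted p = 0.0200). IER3 shares 440 exon bases with the antisense gene IER3-AS1, which was not analysed here, so that their reads cannot be told apart. IER2, a nuclear protein gene induced by growth factors, had 37.3 and 37.6 CPM in WT and 34.9 and 36.4 CPM in Helz-null cells. It was not called (log2FC -0.067, SE 0.053, 95% interval -0.17 to 0.040, adjusted p = 0.319, edgeR), and the GC correction moved it to -0.16 (adjusted p = 0.0135, edgeR). IER2 shares 946 exon bases with an antisense lncRNA gene that was not analysed here, and the same limit applies.

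DUSP1, the phosphatase that switches off JNK, p38 and ERK in the nucleus, had 22.3 and 24.2 CPM in WT and 28.3 and 28.2 CPM in Helz-null cells. The Helz-null libraries were nearly identical and lay above both WT libraries. DUSP1 rose 1.22-fold (log2FC 0.28, SE 0.063, 95% interval 0.16 to 0.41, adjusted p = 0.000306, edgeR). Without WT replicate 1 the log2FC was 0.22 and the call was lost (adjusted p = 0.0123, edgeR).

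**Figure D3:**
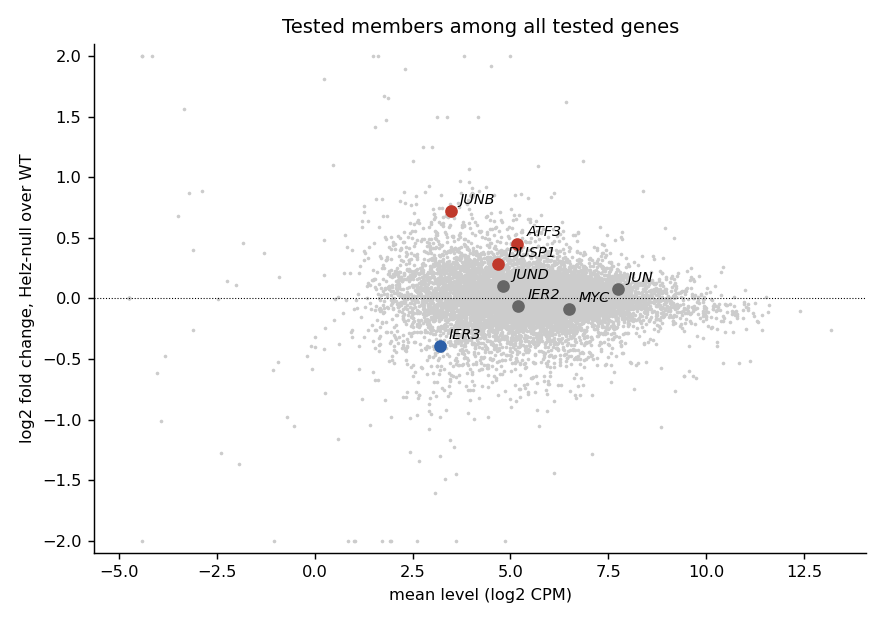
Log2 fold change of Helz-null over WT (y axis) against mean level in log2 CPM (x axis) for the 10978 tested genes (small grey points) and the 8 tested members (large points; red called up, blue called down, dark grey not called); genes beyond the y range are drawn at its edge. The members that were called lie at low and middle levels, and JUN and MYC lie to the right near 0.

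By RPKM, a scale on which genes of different length can be compared, the mean WT levels ranked JUN (63.3), MYC (39.7), IER2 (18.3), JUND (13.8), ATF3 (12.0), DUSP1 (11.5), IER3 (8.26), JUNB (4.57), EGR1 (1.71) and FOS (0.56). Among neighbours in this order, ATF3 and DUSP1 overlapped between WT libraries (11.7 to 12.2 RPKM and 11.0 to 12.0 RPKM), and the other neighbours did not. In Helz-null cells ATF3 (16.3) passed JUND (14.8), and JUNB (7.56) passed IER3 (6.29). In both of these pairs the Helz-null libraries did not overlap, with ATF3 at 15.9 and 16.8 RPKM against JUND at 15.2 and 14.3 RPKM, and JUNB at 7.80 and 7.32 RPKM against IER3 at 6.05 and 6.54 RPKM. JUN kept the highest and FOS the lowest level in every library.

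The AU-rich content of the 3' UTR differed widely among the members. Pentamer density was 8.14 per kb in IER3 (6 pentamers), 6.20 in FOS (5), 6.01 in DUSP1 (4), 4.0 in JUNB (2), 3.01 in MYC (6), 2.46 in ATF3 (3), 2.34 in JUN (3), 1.34 in JUND (1), 0.82 in EGR1 (1) and 0 in IER2. The median of the 10099 tested genes with an annotated 3' UTR was 1.75 per kb, and 25.6% of them had no pentamer. The longer motif TTATTTATT was found 2 times in DUSP1 and once in FOS, and in 9.43% of those tested genes. Density did not order the members by their change: IER3, the densest, was down-regulated, while JUNB, DUSP1 and ATF3, which were up-regulated, spanned 2.46 to 6.01 per kb. Of the 531 tested genes with 6 or more pentamers per kb, 9.23% were up-regulated and 14.3% down-regulated, against 14.2% and 15.7% of all tested genes with a 3' UTR. With 3 or more pentamers the shares were 11.5% up and 18.4% down, and with at least 1 TTATTTATT they were 9.87% up and 19.2% down, in genes whose 3' UTRs are longer (median of 2654 and 3100 bases, against 1361). The pentamer matches describe sequence only and are no evidence of binding.

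**Figure D4:**
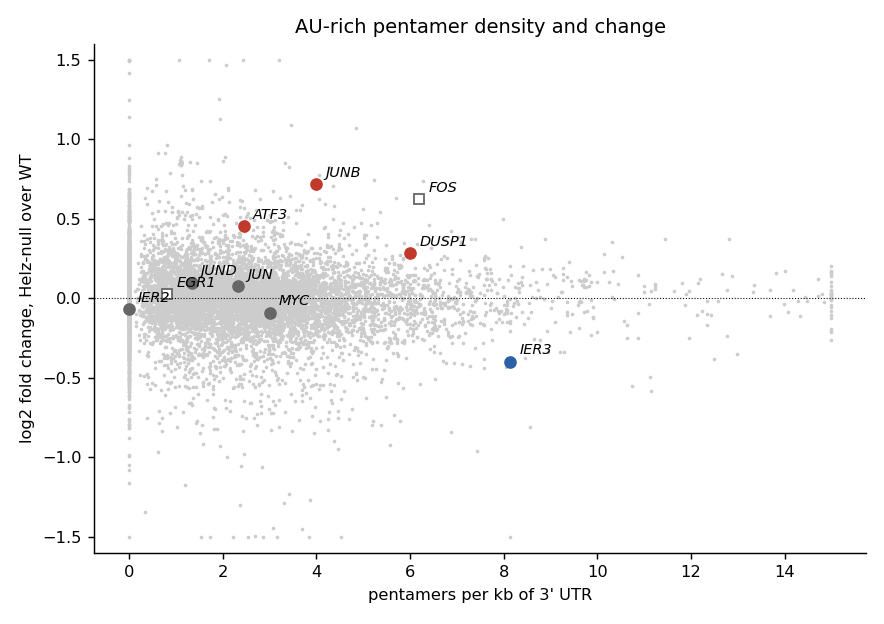
Log2 fold change of Helz-null over WT (y axis) against ATTTA pentamers per kb of 3' UTR (x axis) for tested genes (small grey points) and the 10 members (large symbols; red called up, blue called down, grey not called, open squares FOS and EGR1); genes outside the range are drawn at the edge. The densest members, IER3, FOS and DUSP1, lie on both sides of 0.

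Several members have few exons and a GC-rich transcript. JUN, JUNB and JUND each have 1 exon, as do 1.58% of tested genes, and EGR1, IER2 and IER3 have 2. Transcript GC content ranged from 48.8% (MYC) to 69.9% (JUND), and MYC and ATF3 (50.4%) lay close to the tested median of 48.3%. With the GC correction the log2FC was 0.62 for JUNB, 0.41 for ATF3, 0.23 for DUSP1 and -0.46 for IER3, all past the threshold.

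Promoters were searched for 3 motifs that mediate early induction, from 250 bases before to 50 bases after the start site (RefSeq, GRCh38.p14, both strands). The search covered the members other than IER3 and MYC. A CArG box, the core of the serum response element bound by SRF, occurred 2 times in EGR1, at 105 and 83 bases upstream of the start, and in 1.29% of 35116 promoters. The cAMP response element TGACGTCA occurred once each in DUSP1 and JUND, at 125 and 200 bases upstream, and in 1.85% of promoters. The AP-1 site TGANTCA occurred in none of the members' promoters and in 7.71% of all. The matches are printed in capitals, from chr5:138465364-138465393 and chr5:138465386-138465415 (EGR1, plus strand), chr5:172771302-172771331 (DUSP1, minus strand) and chr19:18281804-18281833 (JUND, minus strand), to show the induction elements beside the response of each gene.
EGR1, upstream box: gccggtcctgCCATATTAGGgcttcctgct
EGR1, downstream box: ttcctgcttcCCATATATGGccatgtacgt
DUSP1: ggcagggcgggTGACGTCAccgccccgtca
JUND: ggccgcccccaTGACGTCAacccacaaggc
EGR1, with both CArG boxes, was not called, and of the pair with a cAMP response element DUSP1 was called and JUND was not. Elements further upstream, or that differ from these motifs, were not searched. A promoter without a match here can still hold such elements, and induction was not measured.

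Genes near the called members were examined for a regional change. Within 1 Mb of JUNB, 24 tested genes had a median log2FC of -0.051, with 1 up and 4 down. Near ATF3, 13 tested genes had a median of 0.016, with 2 up and 1 down. Near DUSP1, 11 had a median of 0.027, with 3 up and 1 down. Near IER3, 48 had a median of 0.012, with 6 up and 6 down. Among all tested genes 13.9% were up and 15.5% down.

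Of 29 other immediate early genes that were tested, 0 were called up by edgeR and 1 down (MCL1, an anti-apoptotic factor, log2FC -0.20, SE 0.029). At an unadjusted p under 0.05, 3 were up and 2 down, against 2758 and 2832 of the 10978 tested genes. DESeq2 called 0 of the 29 up and 1 down. There were 1 up and 3 down with GC correction, 2 down without WT replicate 1 and 1 up without WT replicate 2. The reported counts are 0% and 3.45% of the list, against 13.9% and 15.5% of all tested genes. The median was 0.058, with 19 of 29 above 0. Among 21 more with lower levels, tested only with all detected genes, NR4A3, an orphan nuclear receptor gene, was called up (2.75 and 3.63 CPM against 4.84 and 4.36 CPM, log2FC 0.54, SE 0.14). PTGS2, the inducible cyclooxygenase, was called down (2.71 and 2.51 CPM against 1.48 and 1.10 CPM, log2FC -1.06, SE 0.20). DUSP2, a nuclear phosphatase of the DUSP1 family, was also called down, with 25 and 34 counts in WT and 1 and 9 counts in Helz-null cells.

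Of 8 other AP-1 and small MAF genes tested, 1 was up (12.5%; MAF, log2FC 0.24) and 2 were down (25%), among them JDP2, a repressor that dimerizes with JUN (-0.40), against 13.9% and 15.5% of all tested genes, and the median was -0.039. The call of MAF was lost with GC correction and without Helz-null replicate 1. The count of genes down was 1 with DESeq2, with scaling by library size only, with thinned libraries, without WT replicate 1 and without Helz-null replicate 2. FOSB, FOSL1 and FOSL2, tested only among all detected genes, were not called, with 2.99 and 2.68 CPM in WT and 2.71 and 2.73 CPM in Helz-null cells for FOSB. Of 4 tested MAP kinase phosphatases other than DUSP1, DUSP9 was up (log2FC 0.34) and DUSP7 was down (-0.30). These were 25% and 25%, against 13.9% and 15.5% of all tested genes.

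The pathway upstream of the members, Ras-ERK signalling with SRF and CREB factors, had 3 of 22 genes up (13.6%) and 6 down (27.3%), against 13.9% and 15.5% of all tested genes, with a median of 0.011. The share of genes up was thus at the background. DESeq2 called 0 up and 6 down, and without WT replicate 1, Helz-null replicate 1 and Helz-null replicate 2 in turn 0, 0 and 1 were up. With edgeR and all libraries, the kinase genes BRAF and MAPK3 were up (log2FC 0.34 and 0.14), and the kinase gene MAP2K1 was down (-0.38). The SRF cofactors ELK4 and MKL2 (-0.35 and -0.23) and the CRE-binding factors ATF1 and CREB1 (-0.27 and -0.21) were also down. In JNK and p38 signalling 0 of 14 tested genes were called up and 2 down (MAPKAPK3, -0.26, and MAP3K4, -0.17). These were 0% and 14.3%, so that the share down was near the background of 15.5%. At an unadjusted p under 0.05, 1 was up and 4 were down, against 2758 and 2832 of the 10978 tested genes. DESeq2 called 0 of the 14 up and 1 down. There were 1 up and 1 down without WT replicate 2, and 1 down without Helz-null replicate 1. MAPK13, a p38 kinase tested only among all detected genes, fell from 2.66 and 3.12 CPM to 0.53 and 0.36 CPM (log2FC -2.75, SE 0.24).

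Genes for proteins that bind AU-rich and related elements were examined as the trans-acting side. Of 13 tested, 0 were called up by edgeR and 3 down: PUM2 (-0.19), CELF1 (-0.13) and HNRNPD, also called AUF1 (-0.11). These were 0% and 23.1%, against 13.9% and 15.5% of all tested genes. At an unadjusted p under 0.05 there were 1 up and 3 down, against 2758 and 2832 of the 10978 tested genes. DESeq2 called 0 of the 13 up and 3 down, against 1102 and 1288 of all tested genes. All 3 calls were lost without Helz-null replicate 2, 1 gene was called down with scaling by library size only, and 1 was called up without WT replicate 2. ZFP36, itself an immediate early gene, had 3.36 and 2.00 CPM in WT and 2.30 and 2.98 CPM in Helz-null cells and was not called.

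Around MYC, its antagonists MXI1 and MXD4 were up (log2FC 0.29 and 0.14) and MLX was down (-0.15), of 9 tested partners and paralogs. These were 22.2% and 11.1%, against 13.9% and 15.5% of all tested genes. DESeq2 called 1 of these 9 up and 0 down, and 0 were down without WT replicate 2 and without Helz-null replicate 2. The count up was 1 without Helz-null replicate 1, without Helz-null replicate 2, with GC correction and with thinned libraries. Of 10 established MYC target genes 0 were called up and 1 down (NPM1, -0.26), and the median was -0.060. These were 0% and 10%, against 13.9% and 15.5% of all tested genes. At an unadjusted p under 0.05, 0 targets were up and 5 down, against 2758 and 2832 of the 10978 tested genes. DESeq2 called 0 targets up and 1 down, against 1102 and 1288 of all tested genes. The count of targets down was 2 without WT replicate 1 and without WT replicate 2, and 3 with GC correction and among all genes with at least 1 count.

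ATF3 is induced by ATF4 in the stress response to amino acid shortage. Of 11 other genes of that response 0 were called up and 6 down with edgeR, among them CHAC1 (-0.63), ASNS (-0.47), SESN2 (-0.23) and ATF4 (-0.11). These were 0% and 54.5%, against 13.9% and 15.5% of all tested genes, and the median was -0.16. At an unadjusted p under 0.05 there were 0 up and 7 down, against 2758 and 2832 of the 10978 tested genes. DESeq2 called 0 of the 11 up and 5 down, against 1102 and 1288 of all tested genes. Heat shock response genes, another stress group, had 1 of 10 up (HSPH1, 0.14) and 6 down, such as DNAJB1 (-0.30) and HSPD1 (-0.19), with a median of -0.14. These were 10% and 60% of the list, against 13.9% and 15.5% of all tested genes, and the count up was 0 without WT replicate 1, which ended the call of HSPH1, and 2 without WT replicate 2. HSPA1A and HSPA1B were among these 6, but they are near-identical copies and the split of reads between them is uncertain.

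**Figure D5:**
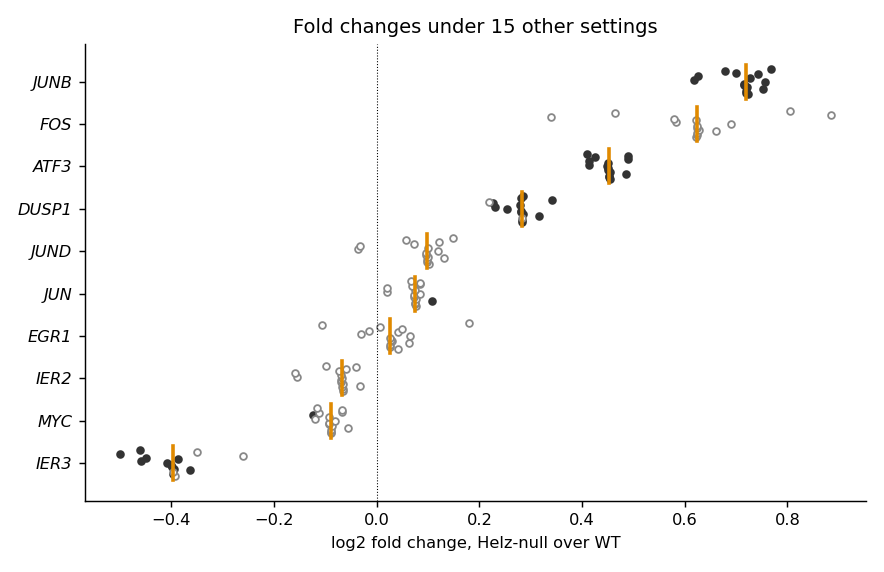
Log2 fold change of Helz-null over WT (x axis) of each member under 15 other tests, scalings, gene filters and sets of libraries (points; filled past an adjusted p of 0.005, open not) with the reported value (orange bar). JUNB and ATF3 are filled throughout, IER3 and DUSP1 have open points, and JUND and EGR1 have points on both sides of 0.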

How the data were processed

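RNA was sequenced from 4 HEK293T libraries (TruSeq, paired-end), 2 per genotype. Per the methods, ribosomal RNA reads were filtered out (Bowtie2), the rest was mapped to hg19 (TopHat2) and counted (QuasR), and the authors deposited raw counts per gene with a gene width. Versions, annotation, strand use and whether both ends of a pair were counted are not given in the sources used here, so overlapping and antisense genes are uncertain. The library totals exceed the mapped reads the methods give, so a count may be a read end rather than a fragment. The authors' own comparison, also deposited, holds p-values, FDR, log2 CPM and log2 fold changes per gene, and its gene list alone was used. All count columns were mapped to samples by the labels.

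Counts were tested with edgeR 4.0.16 and limma 3.58.1 in R 4.3.3 (TMM, glmQLFit and glmQLFTest, genotype as the only term, Benjamini-Hochberg adjustment). SEs and 95% intervals were derived from the F statistic, and RPKM used the deposited width. With 2 libraries per group, p-values rest on the spread between these samples, which edgeR pools across genes. They do not measure the spread of each gene alone. Among all genes with at least 1 count this pooling was near complete. The precision at low levels is set by the counts (floor of 3 counts, counting error only). Replicates differed by more than sampling noise (chi-square per degree of freedom of 4.16 in WT and 3.02 in Helz-null). Transcript features came from 1 canonical GENCODE transcript per gene on GRCh37, matched for 94.3% of tested genes, and promoters from RefSeq. Named genes were all members, HELZ and list genes that were called. Some called list genes are not reported here. NR4A3, PTGS2, DUSP2 and MAPK13 were called only in the wider table, and HOOK2, CASC11, IER3-AS1, ZFP36 and the FOS paralogs were named for their relation to a member. Members and lists were chosen with earlier results of these data known. Alternatives were DESeq2 1.42.0, the edgeR likelihood ratio test, a test against a fold change of 1.2, other scalings and gene filters, thinned libraries, a GC correction, a replicate block and each library left out. The steps were tested on simulated data. Figures were drawn with matplotlib 3.10.9 in Python 3.11.15.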

Additional observations from a re-analysis of the deposited data

How the results depend on the processing

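Under 15 alternatives, JUNB and ATF3 kept their direction and their call, and the number of members called up was 2 to 4. The number of members called down was 0 with DESeq2 and with the test against a fold change of 1.2, 2 with the replicate block and GC correction together, and 0 to 1 with single libraries left out. The count of genes called up and down was 1524 and 1701 in the reported analysis, 2109 and 1318 with scaling by library size only, 1191 and 2110 with GC correction, and 217 and 318 in the test against a fold change of 1.2. With single libraries left out it was 1027 to 1544 up and 1180 to 1659 down. A lone library in a group was then assumed to vary like the other group. Under the GC correction JUND was -0.036, EGR1 -0.030, JUN 0.020 and IER2 -0.16. The median of all tested genes moved to -0.028 in that setting, so that JUND and EGR1 lay close to it. Scaling by library size only moved this median to 0.032. With single libraries left out EGR1 ranged from -0.11 to 0.18, JUND from 0.057 to 0.15 and IER2 from -0.099 to -0.040. JUND was lowest and IER2 nearest 0 without Helz-null replicate 1. The cause was not tested. In the test against a fold change of 1.2, IER3 and DUSP1 were not called (edgeR adjusted p = 0.347 and 1).

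Replicate numbers do not pair the libraries: the labels name no shared batch, and deviations of equally numbered libraries had a correlation of 0.034 across genes. With the replicate block, 1677 genes were up and 1841 down, and 3 members were up and 1 down. With the replicate block and GC correction, JUND was -0.033, EGR1 -0.015, IER2 -0.16 (edgeR adjusted p = 0.00818) and MYC -0.12 (called, edgeR adjusted p = 0.00187). The median of all tested genes was then -0.027. Of 300 counts for gene lists under the alternatives, 236 were within 1.5 times the reported count and 64 were not. Under the test against a fold change of 1.2 at most 1 gene of any of these lists was called in either direction. FOS had at most 114 counts in a library, and the part of depth in its result was not tested.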
